A study of Mus musculus with 2 samples.

Results

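CD8 T cells with RNA for carbonic anhydrase 2 (Car2) or E-cadherin (Cdh1) were a small set in the mammary fat pad: 101 cells of 5488 T cells in all, 64 of 2991 in the parous library and 37 of 2497 in the virgin library. A member had at least 1 UMI (unique molecular identifier, 1 captured RNA molecule) of Car2 or Cdh1, and at least 2 of the 6 genes Car2, Cdh1, Qpct, Hpgds, Nt5e and Itgae detected. It also had 0 UMIs of the innate receptor adaptor genes Fcer1g and Tyrobp and of the granzyme gene Gzmk. T cells were barcodes with at least 500 genes, at least 1000 UMIs, under 10% mitochondrial UMIs and at least 1 UMI of Cd3d, Cd3e or Cd3g. The members were thus chosen by measured UMIs of these 12 genes, whose levels describe the choice and are not results.

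The cells were live CD45+ TCRB+ CD8a+ cells, sorted and untreated, and came from C57BL/6 mice (mammary fat pad number 4). The parous group had been through several pregnancies, and the virgin group had been through none. Each group was 1 library of a pool of at least 5 mice, prepared with 10x 5-prime chemistry, so nothing here can be tested across replicates. The 95% intervals are exact and cover counting error only: UMIs of 1 cell are not independent, and neither mice nor preparations were replicated. UMIs of a gene were summed over a set of cells and given per 1e+06 UMIs of that set (CPM). Ratios are log2 ratios of CPM with 0.5 added to each count. The libraries held 4927 parous and 2526 virgin barcodes, with 14676415 and 20166425 UMIs, and the filter left out 1908 parous barcodes against 15 virgin ones. The libraries had 18 barcodes in common.

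Resident memory CD8 T cells stay in a tissue in place of returning to the blood. Many carry CD103, the integrin made of the Itgae and Itgb7 products, whose ligand is E-cadherin on epithelial cells, and CD49a, the Itga1 product, which binds collagen. TGF-beta induces CD103 in T cells. Carbonic anhydrase 2 interconverts carbon dioxide and bicarbonate, Qpct encodes glutaminyl-peptide cyclotransferase, Hpgds the haematopoietic prostaglandin D synthase, and Nt5e the ectoenzyme CD73, which makes adenosine from AMP. Naive and central memory T cells carry the chemokine receptor gene Ccr7 and the transcription factor gene Klf2 instead, and these guide them through blood and lymph nodes.

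Most members met the rule narrowly. Exactly 2 of the 6 genes were detected by 36 of the 64 parous and 30 of the 37 virgin members. Car2 and Cdh1 together gave a single UMI in 29 parous and 20 virgin members. Car2 without Cdh1 was found in 24 parous and 21 virgin members, Cdh1 without Car2 in 30 and 13, and both in 10 and 3. Just outside the rule, 66 parous and 43 virgin cells had Car2 or Cdh1 and no other of the 6 genes, and 56 parous and 5 virgin cells had 2 of the 6 genes and exactly 1 UMI over Fcer1g, Tyrobp and Gzmk.

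The excluded genes removed far more parous than virgin cells. Of the T cells with Car2 or Cdh1 and 2 of the 6 genes, 311 of 375 parous cells (82.9%) were left out, against 21 of 58 virgin cells (36.2%). Fcer1g or Tyrobp left out 181 parous and 2 virgin cells, and Gzmk alone 130 and 19. The members therefore hold a minority of the parous cells with this marker combination and the majority of the virgin ones.

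Car2 (chromosome 3, 14886273 to 14900770, mm10) was found in 34 parous members, at 1 UMI in 11 cells, 2 in 6 cells and 3 to 8 in 17 cells, and in 24 virgin members, with up to 7 UMIs. It stood at 286.6 CPM in parous members and 44.7 CPM in the other parous T cells, and at 172.8 and 6.07 CPM in the virgin library. Cdh1 (chromosome 8, 106603351 to 106670246) was found in 40 parous members, 29 of them at 1 UMI and none above 4, and in 16 virgin members, 14 of them at 1 UMI. Per cell, Cdh1 was thus mostly a single molecule, while Car2 reached 3 or more molecules in 17 parous and 7 virgin members. Its level was 165.1 CPM in parous members against 28.9 in the other parous T cells, and 58.6 CPM in virgin members against 1.53 in the other virgin T cells. Itgae (chromosome 11, 73090583 to 73147446) was found in 38 parous members (227.4 CPM, other T cells 81.4) and in 22 virgin members (123.5 CPM, other T cells 18.6). The remaining genes of the rule were rarer: Nt5e in 25 parous and 12 virgin members, Qpct in 21 and 8, and Hpgds in 7 and 2.

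**Figure D1:**
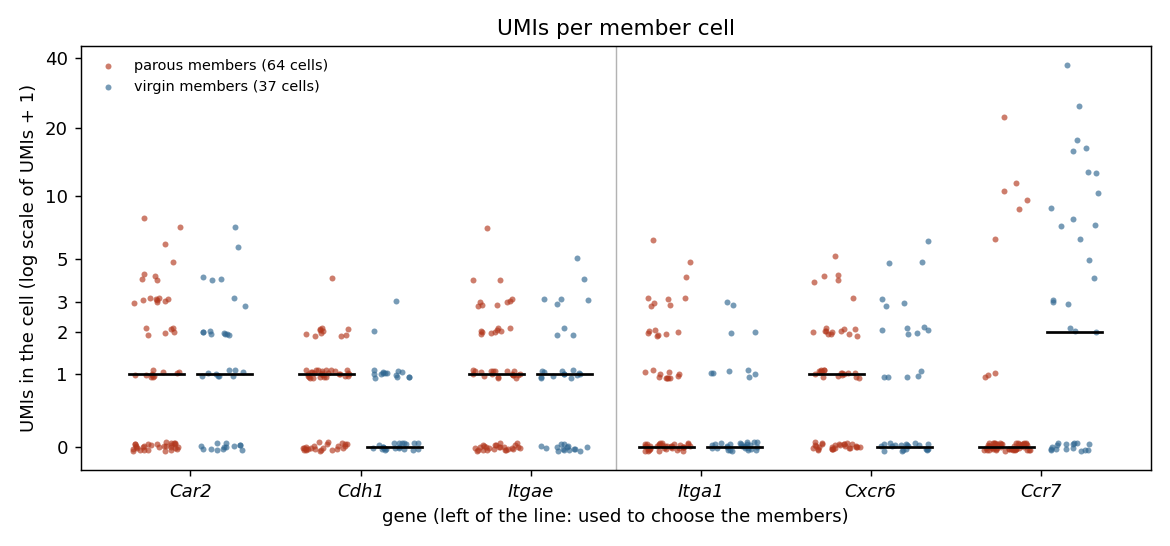
Each point is 1 member cell, parous cells left of virgin cells, and the height gives its UMIs of the gene on a log axis of UMIs + 1; black bars are medians. Ccr7 reached 36 UMIs in a virgin member, and its median was 2 UMIs in virgin and 0 in parous members.

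The virgin members went against the resident-like label. Ccr7 was found in 9 of 64 parous members (14.1%, interval 6.64 to 25.0%) and in 21 of 37 virgin members (56.8%, 39.5 to 72.9%), and in 27.3% of the other parous and 48.6% of the other virgin T cells. Itga1 or Cxcr6, a chemokine receptor gene of resident cells, was found in 46 parous members (71.9%, 59.2 to 82.4%) and 18 virgin members (48.6%, 31.9 to 65.6%), and in 47.2% and 43.4% of the other T cells. Virgin members thus resembled the virgin T cells around them in both shares, while parous members had Ccr7 less often and Itga1 or Cxcr6 more often than the T cells around them before depths were matched. With every cell thinned at random to 1400 UMIs, Ccr7 was found in 11.1% of parous members (interval 4.59 to 21.6%, which spans the share of the other cells) and 18.6% of the other parous T cells, and in 29.7% of virgin members and 32.0% of the other virgin T cells. Itga1 or Cxcr6 was then found in 47.6% of parous members (34.9 to 60.6%) and 28.7% of the other parous T cells, and in 27.0% of virgin members (13.8 to 44.1%) and 18.3% of the other virgin T cells. Because of this mixture, the main results that set parous against virgin members are also given without the cells that had a Ccr7 UMI, which leaves 55 parous and 16 virgin members.

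**Figure D2:**
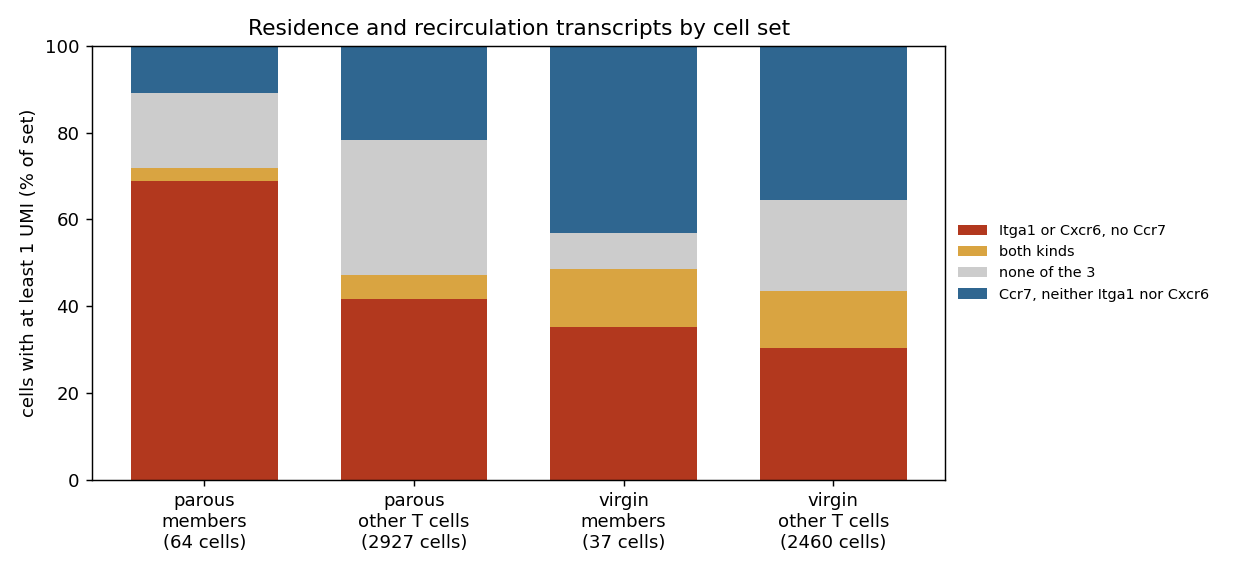
Stacked bars give the share of each cell set, without thinning, with a UMI of Itga1 or Cxcr6, of Ccr7, of both kinds or of none of the 3 genes. Cells with Itga1 or Cxcr6 and no Ccr7 made up 68.8% of parous members and 41.5% of other parous T cells, and 35.1% of virgin members and 30.3% of other virgin T cells.

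By lineage the members were CD8 alpha-beta T cells. Both Cd8a and Cd8b1, the chains of the CD8 coreceptor, were found in 51 of 64 parous members (79.7%) and 36 of 37 virgin members (97.3%), and in 64.1% and 84.6% of the other T cells. Cd4 was at 0 UMIs in all members, and Trdc, the delta chain constant gene, was found in 1 parous member and no virgin member. Mammary epithelial markers, which matter because epithelium makes E-cadherin, summed to 9.35 CPM in parous members against 56.7 CPM in the other parous T cells, and to 3.09 against 4.95 CPM in the virgin library. Only Epcam of the 10 epithelial markers gave UMIs in parous members, 3 UMIs in 2 cells; the milk protein genes Csn1s1 and Csn3 were at 0 UMIs there. Myeloid and dendritic markers summed to 9.35 CPM in parous members (3 UMIs) against 55.2 CPM in the other parous T cells, and to 3.09 against 53.4 CPM in the virgin library. Gamma delta T cell markers summed to more in the members, at 221.2 against 116.5 CPM in the parous library. In the virgin library the sums were 95.7 against 59.2 CPM. Tcrg-C2 gave 17 UMIs in 10 parous members and Trgv2 46 UMIs in 15. Few virgin members gave such UMIs: Trgv2 had 22 in 5 cells, 12 of them in 1 cell, and Tcrg-C2 had 4 in 1 cell. The share of gamma chain RNA that comes from alpha-beta T cells was not tested.

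The number of members depended on depth. The members had a median of 4830.5 UMIs in the parous and 8171 UMIs in the virgin library, against 4108 and 6991 UMIs in the other T cells. When every T cell was thinned to 1400 UMIs before the rule was read, which left out 119 parous and 12 virgin cells, it was met by 37 of 2872 parous (1.29%, interval 0.909 to 1.77%) and by 1 of 2485 virgin cells (0.0402%), against 2.14% and 1.48% without thinning. Over 20 such draws the counts ran from 24 to 43 parous cells (median 34) and from 1 to 8 virgin cells (median 5). Of the 37 parous cells in the draw above, 22 were members without thinning. Ratios taken with thinning before the rule thus rest partly on other cells. At equal depth, cells that met the rule were thus scarce in the virgin library, although thinning also removes UMIs of the 3 excluded genes.

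Marker genes of the rule, each taken alone, also stood higher in the chosen cells when the choice and the measurement used separate molecules. Whether the genes were found together in the molecules not used for the choice was not tested. The UMIs of each cell were split at random into 2 equal parts, and the rule was read on the first, which chose 55 parous and 18 virgin cells. In the part not read, parous cells chosen this way had 6.59-fold more Car2 (interval 4.67 to 9.10), 2.45-fold more Itgae (1.62 to 3.56) and 2.89-fold more Cdh1 (1.47 to 5.17) than the other T cells. Itga1, which the rule does not read, was 3.14-fold higher (2.14 to 4.47) in parous cells and 1.62-fold (0.440 to 4.2) in virgin cells. The virgin values for the rule's genes were 24.3-fold for Car2 (12.9 to 42.7) and 4.70-fold for Itgae (2.0 to 9.43). Absence of Gzmk did not carry over as well: 29.1% of these parous cells had a Gzmk UMI in the part not read, against 25.6% of the other T cells, whereas Fcer1g was found in 5.45% against 15.9%.

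Among all parous T cells at 1400 UMIs, cells with Car2 had Itgae, Itga1 and the excluded innate genes more often than cells without it, with smaller differences in Cxcr6 and Gzmk. Of the 152 cells with Car2, 32.2% had Itgae and 31.6% had Itga1, against 9.15% and 9.56% of the cells without Car2. Ccr7 was found in 7.24% of them against 19.1%, and Fcer1g in 39.5% against 13.0%. Cxcr6 was found in 27.6% against 21.2%, and Gzmk in 21.1% against 21.5%. The virgin library had only 21 cells with Car2 at this depth, of which 1 had Itgae, 2 had Itga1 and 0 had Cdh1, Nt5e, Hpgds, Fcer1g or Tyrobp. These cells include the members.

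Itga1, the CD49a chain, stood higher in parous members than in the other parous T cells. The gene (chromosome 13, 114953096 to 115101964) gave 58 UMIs in 27 parous members, from 1 to 6 per cell, or 180.7 CPM against 72.3 CPM in the other parous T cells, a log2 ratio of 1.33 (interval 0.91 to 1.71). In virgin members it gave 16 UMIs in 10 cells, 49.4 against 30.9 CPM, with a log2 ratio of 0.72 (-0.14 to 1.39). At 1400 UMIs, Itga1 was found in 28.6% of parous members and 10.3% of the other parous T cells, and in 8.11% of virgin members and 3.92% of the other virgin T cells. In cells with Ccr7 and the naive T cell factor gene Lef1, a set that can include members, the shares were 1.06% (parous) and 0.546% (virgin), at median depths of 5138 and 7827 UMIs. Free RNA was not measured, so its part in these shares was not tested.

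Pmepa1, a TGF-beta target whose product restrains the pathway, gave 67 UMIs in 36 parous members and 16 UMIs in 10 virgin members. Its level was 208.7 against 99.8 CPM in the parous library (log2 ratio 1.08, interval 0.69 to 1.42) and 49.4 against 20.9 CPM in the virgin library (1.28, 0.42 to 1.96). Ldlrad4, another inhibitor of the pathway, had log2 ratios of 1.21 (0.85 to 1.54) and 1.09 (0.48 to 1.60). Smurf2, a ubiquitin ligase of the pathway, had 1.15 (0.51 to 1.69) in the parous and 0.22 (-0.92 to 1.04) in the virgin library. Both inhibitors thus stood higher in the members of each library than in all other T cells, but not than in the most similar parous cells. In parous cells with the marker combination and Fcer1g or Tyrobp, Pmepa1 was at 203.2 CPM (members 208.7) and Ldlrad4 at 283.8 CPM (members 233.7), and Pmepa1 was at 207.7 CPM in the other parous T cells with Cdh1. The receptor genes did not separate from 0 at this depth: Tgfbr1 had log2 ratios of 0.51 and 0.58 and Tgfbr2 of 0.17 and 0.13, with intervals across 0. Of the 17 measured genes of the TGF-beta list, 4 were at least 1.5-fold higher and 1 (Smad2) at least 1.5-fold lower in parous members, where 23.5% of all 12140 genes with at least 10 UMIs were higher and 16% lower by that much, so the list's share of higher genes was that of all genes. In virgin members it was 6 higher and 3 lower of 18, where 26.6% of all genes were higher and 17.5% lower. A gene at 0 UMIs in 1 set has no true ratio, so counts and medians of lists with such genes were also taken with those genes held at the bound that 3 counts allow. Held that way, 19.7% of all genes were at least 1.5-fold higher and 9.23% lower in parous members, and 19.3% and 10.7% in virgin members. The TGF-beta list then had 5 higher and 3 lower in virgin members and held no such gene in parous members.

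The tissue residency list stood moderately higher in parous members than in all other parous T cells. Its median log2 ratio was 0.39 over 28 measured genes, against 0.09 over all genes. Of its genes, 11 were at least 1.5-fold higher and 2 lower. By that much, 23.5% of all genes were higher and 16% lower in parous members, and 26.6% and 17.5% in virgin members. The list's higher genes in parous members included Itga1, Rgs1, Isg20, Ahr and Gpr34. The best known members of the list varied: Cxcr6 had a log2 ratio of 0.17 (-0.22 to 0.51), Cd69, which encodes a surface protein that retains cells in tissue, -0.15 (-0.46 to 0.13), and Zfp683, the gene of the residency factor Hobit, 0.31 (-0.83 to 1.14). In virgin members the list median was -0.05, with 9 genes higher and 4 lower, against 0.10 over all genes, and without Ccr7 cells it was 0.22 in parous and 0.49 in virgin members. The recirculation and naive list had medians of -0.09 in parous and 0.24 in virgin members over 21 genes. In parous members, 3 of its genes (Dapl1, Txk and Ly6c2) were at least 1.5-fold lower and 0 higher. Ccr7 had a log2 ratio of -0.54 (-0.91 to -0.21) in parous and 0.36 (0.15 to 0.55) in virgin members. The virgin ratio was -0.079 when members were chosen on a random part of the UMIs. Several residency genes named above were not higher than in the parous marker cells with Fcer1g or Tyrobp. Log2 ratios of members over those cells were -0.67 (-1.11 to -0.26) for Itga1 and -0.36 (-0.97 to 0.18) for Isg20. They were 0.09 (-1.16 to 1.13) for Ahr and 0.03 (-1.09 to 0.97) for Gpr34. Without the demand for 0 UMIs of Fcer1g, Tyrobp and Gzmk, the parous residency median was 0.86.

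Among the largest ratios in the parous library, 13 genes ran from 1.57 for Prag1, a pseudokinase gene, to 1.23 for Ly75. Dtx1, which encodes the Notch-pathway protein Deltex 1, gave 36 UMIs in 27 parous members (112.2 against 41.6 CPM, log2 ratio 1.45, interval 0.90 to 1.92) and a log2 ratio of 0.90 (0.04 to 1.57) in virgin members. It was spread over many cells, with at most 3 UMIs in 1 parous member, but its parous ratio was 0.05 when cells were thinned before the rule. Slc16a10, a transporter gene for aromatic amino acids, had a log2 ratio of 1.32 (0.82 to 1.75) in parous members and only 3 UMIs in virgin members. Several of these genes were as high or higher in the parous marker cells with Fcer1g or Tyrobp, at 222.5 CPM for Slc16a10 (members 134.0), 289.2 for Itga1 (members 180.7), 82.8 for Prag1 (members 62.3) and 75.3 for Spsb1 (members 53.0). Of these, Itga1 and Slc16a10 had member ratios against those cells with intervals below 0, at -0.67 (-1.11 to -0.26) and -0.72 (-1.24 to -0.25). Higher in both libraries, with intervals above 0, were Prag1 (1.57 and 2.28), Dtx1, Spsb1 (1.25 and 3.41) and St8sia1 (1.34 and 1.18), the gene of GD3 synthase. Itga1 and Pygl were above 0 in both with virgin intervals across 0, and Supt3, Trim11, Rc3h2, Ube2q2, Iars2 and Ly75 had negative virgin ratios with intervals across 0. Without the demand for 0 UMIs of the 3 genes, the parous ratio of St8sia1 was -0.55.

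**Figure D3:**
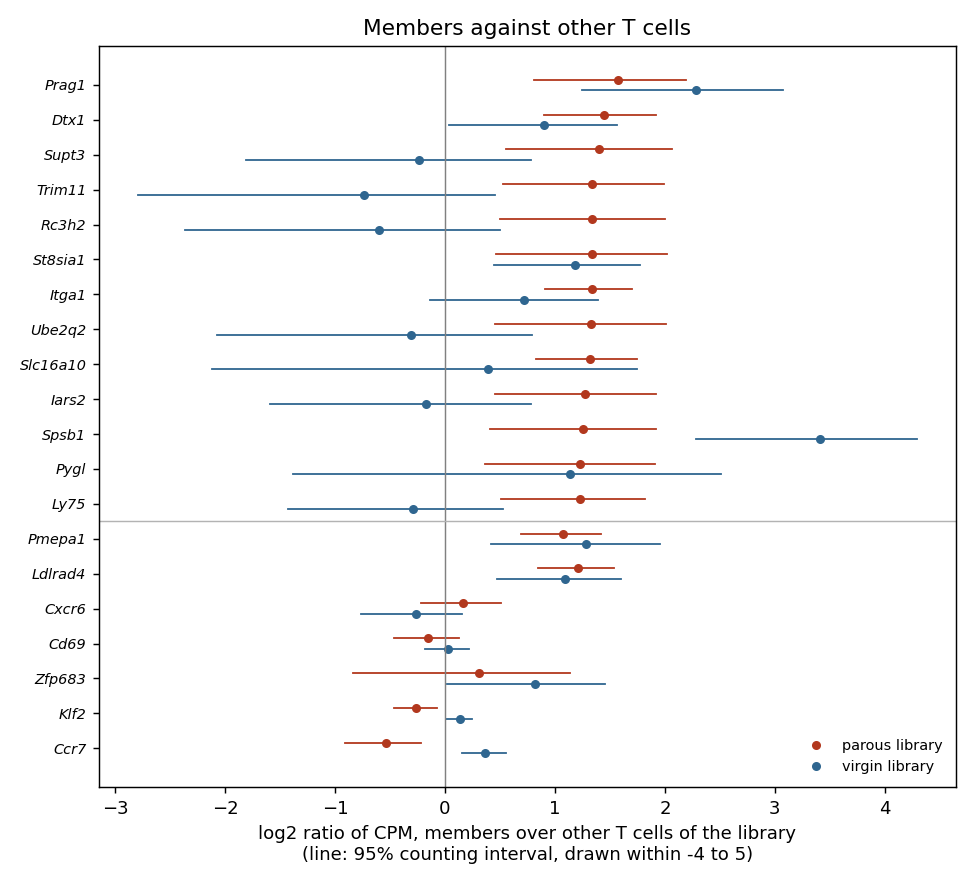
Points are log2 ratios of members over other T cells within the parous and the virgin library, and lines are 95% counting intervals. Above the grey line are 13 of the largest parous ratios, 1.57 to 1.23. Below it are genes fixed by role, where Pmepa1 and Ldlrad4 lie above 0 in both libraries. Ccr7 has opposite signs here, but its virgin ratio is -0.079 when members are chosen on a random part of the UMIs.

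Bcl2, a survival gene, stood higher in the members of both libraries than in all other T cells. Its log2 ratios were 0.70 (0.47 to 0.92) in parous and 0.59 (0.29 to 0.87) in virgin members. Its UMIs came from 54 of 64 parous and 28 of 37 virgin members. Cd160, a receptor gene of cytotoxic lymphocytes, had 1.05 (0.72 to 1.35) and 0.57 (0.04 to 1.02), and Itgb7, the partner chain of Itgae in CD103, 0.30 (-0.03 to 0.60) and 0.53 (0.25 to 0.78). Bcl2 and Cd160 did not separate members from the parous marker cells with Fcer1g or Tyrobp. Log2 ratios of members over those cells were 0.08 (-0.19 to 0.33) for Bcl2 and -0.25 (-0.62 to 0.08) for Cd160. Tjp1, a junction scaffold gene from the list of cadherin and adhesion partners, had the largest ratios of that list, but from few cells: 8 UMIs in 5 parous members and 5 UMIs in 1 virgin member. With genes at 0 UMIs held at their bound, 2 of the 12 measured genes of that list were at least 1.5-fold higher and 1 lower in parous members (median log2 ratio 0.14), and 1 higher and 1 lower of 11 in virgin members. This was near the shares of all genes, 19.7% higher and 9.23% lower in parous and 19.3% and 10.7% in virgin members. Held the same way, the list of carbonic anhydrases and acid-base transport, which left out Car2, had 3 higher and 0 lower of 9 genes in parous members and 4 higher and 0 lower of 8 in virgin members, over sums of only 130.9 and 157.4 CPM. The prostaglandin list had 2 higher and 1 lower of 8 genes, and 2 higher and 0 lower of 9, and Ptger4, a prostaglandin E2 receptor gene, had log2 ratios of 0.86 (0.25 to 1.36) and 0.25 (-0.64 to 0.94). Of the 10 measured genes of the purine list, 1 was higher and 3 lower in parous members, and 1 higher and 4 lower in virgin members.

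Some of the lowest ratios were in granzyme, Ly49 and cell cycle genes, and in the parous library these depended on the demand for 0 UMIs of Fcer1g, Tyrobp and Gzmk. Gzma, the granzyme A gene, gave 26 UMIs in 4 parous members, 17 of them in 1 cell, and 1 UMI in virgin members. This was 81.0 against 1635 CPM in the parous library (log2 ratio -4.31, interval -4.95 to -3.78) and 3.09 against 588.9 CPM in the virgin library. Without that demand, the parous ratios were 2.95 for Gzma, 3.21 for Gzmc, 1.88 for Klra1 and 1.64 for Klra6. Klra6 was at 0 UMIs in parous members, at least 2.48-fold lower than in the other parous T cells. The Ly49 genes (Klra) are near-identical copies, so the assignment of their reads is uncertain. Of the 21 measured genes of the NK and Ly49 receptor list, 9 were at least 1.5-fold lower and 3 higher in parous members, and 4 were lower and 2 higher when the 8 genes at 0 UMIs were held at their bound of 3 counts. Of all genes, 16% were lower and 23.5% higher there, and 9.23% and 19.7% when held at that bound. Gzmb had a log2 ratio of -0.48 (-0.74 to -0.24) in parous and -2.80 (-3.76 to -2.08) in virgin members, and 38 of its 133 parous UMIs came from 1 cell.

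Cell cycle genes were low in the members of both libraries. Of 23 genes, 13 were at least 1.5-fold lower and 1 higher in parous members (median log2 ratio -1.12), and 23 were lower in virgin members (-2.37). With genes at 0 UMIs held at their bound, 8 were lower in parous members (median -0.42) and 22 in virgin members (-1.52). Of all genes, 16% were lower in parous and 17.5% in virgin members, or 9.23% and 10.7% when held the same way. Mki67, the proliferation marker gene, was at 0 UMIs in all members, at least 2.13-fold lower than in other T cells in the parous and 6.25-fold in the virgin library. The parous list median was 0.25 without the demand for 0 UMIs of the 3 genes and 0.37 when cells were thinned before the rule. That thinning chose 37 parous cells, of which 22 were members. Top2a and Pclaf had parous ratios of -2.55 and -2.92 from 1 UMI each; Birc5 was at 0 UMIs. Also among the 14 smallest were Hspb11 at 0 UMIs, Arl5c, Cxcl10, Fah, Irgm1 and Klrg1 at 1 UMI each, and Trf at 2 UMIs in 1 cell, all too few to place within the members.

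Genes of circulating effector cells were low in both libraries. Of 13 measured genes of that list 6 were at least 1.5-fold lower and 1 higher in parous members (median -0.56), and 10 were lower and 0 higher of 14 in virgin members (-1.29, with genes at 0 UMIs at their bound). At that bound, 9.23% of all genes were lower and 19.7% higher in parous members, and 10.7% and 19.3% in virgin members. Lgals1, the galectin 1 gene, gave 172 UMIs in 32 parous members (log2 ratio -0.89, -1.12 to -0.68) and 168 UMIs in 23 virgin members (-1.42, -1.65 to -1.20). Zeb2, a factor gene of terminal effector cells, had -1.86 and -2.93 from 3 and 2 UMIs, and Klrg1, another effector marker, was at 1 UMI in parous and 0 UMIs in virgin members, there at least 11.9-fold lower. Cx3cr1, also of that list, went the other way in parous members (9 UMIs in 5 cells, log2 ratio 1.68, 0.44 to 2.58). Eomes, a factor gene of memory and killer cells, had -2.33 (-4.38 to -1.14) and -1.29 (-2.59 to -0.40). Type I interferon genes were lower in parous members, with 10 of 22 at least 1.5-fold lower and 1 higher (median -0.53), where 16% of all genes were lower and 23.5% higher. With genes at 0 UMIs at their bound, 8 of these interferon genes were lower (median -0.29). In virgin members their median was 0.08, with 3 lower and 3 higher. The remaining lists stayed nearer to all genes. With genes at 0 UMIs at their bound, median log2 ratios in parous and virgin members were -0.05 and -0.13 for cytotoxic granules, -0.11 and -0.12 for inhibitory receptors, 0.08 and -0.30 for transcription factors, -0.13 and -0.23 for costimulatory receptors, and -0.10 and -0.18 for immediate early genes. They were 0 in both libraries for cytokines and for the innate-like T cell list, and 0 and -0.15 for lipid genes.

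Against the cells that shared the markers but were left out, the parous members stood apart mainly from those with Fcer1g or Tyrobp. At 1400 UMIs, Cd8b1 was found in 71.4% of members, in 17.4% of the 181 marker cells with Fcer1g or Tyrobp, and in 81.2% of the 130 marker cells with Gzmk alone. Gzma was found in 6.35%, 72.5% and 18.8% of these sets, and Gzmb in 23.8%, 84.8% and 27.3%. The cells with Fcer1g or Tyrobp were thus rich in Gzma and Gzmb and poor in the CD8 beta chain, while members and Gzmk cells were not. The granzyme gene Gzmk itself chose the Gzmk cells and was kept out of members by the rule. Pdcd1, the PD-1 gene, was found in 12.7% of members, 2.25% of the Fcer1g or Tyrobp cells and 19.5% of the Gzmk cells.

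Members and marker cells with Gzmk alone had Xcl1, a chemokine gene, in 55.6% and 55.5% of cells, Cd7 in 68.3% and 60.2%, and Itga1 in 28.6% and 16.4%. Of the recirculation genes, 3 were higher in members in summed UMIs: log2 ratios of members over Gzmk cells were 1.17 for Ccr7 (0.68 to 1.67), 1.49 for S1pr1 (0.79 to 2.20) and 1.73 for Lef1 (1.05 to 2.44). The 72 Ccr7 UMIs came from 9 of the 64 members, 23 of them from 1 cell. Genes of division were lower, with 1 Top2a UMI in members against 55 in Gzmk cells.

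Compared with the 162 parous cells that had Itga1 and Cxcr6 without Itgae, members had less Cxcr6 (log2 ratio -1.01, -1.42 to -0.63), which chose those cells, and more Ldlrad4 (1.17, 0.69 to 1.65), Prag1 (1.61, 0.59 to 2.69) and Ccr7 (2.37, 1.76 to 3.03). Ly6c2 (-1.28, -1.50 to -1.06) and Lgals1 (-1.22, -1.47 to -0.99), both common in circulating effector cells, were lower. Klf2 was found at 1400 UMIs in 50.8% of members and 48.4% of these cells, against 78.6% of cells with Ccr7 and Lef1.

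**Figure D4:**
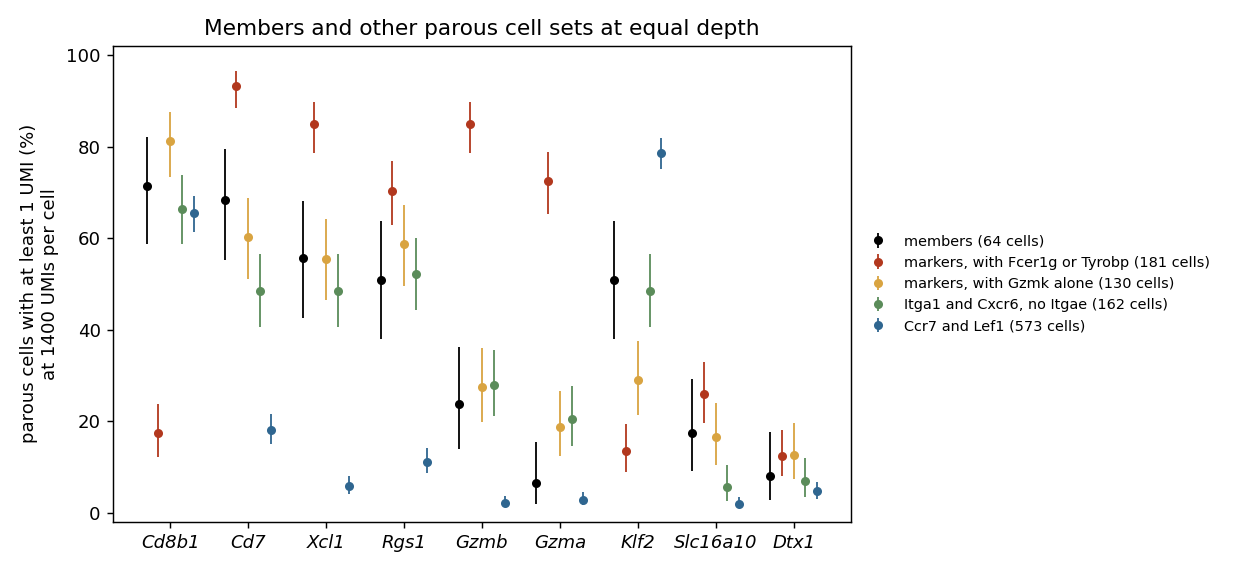
Points are the shares of parous cells with at least 1 UMI of the gene when each cell is thinned to 1400 UMIs, with exact 95% intervals, for members and for 4 other cell sets. Cells with Fcer1g or Tyrobp separate from members in Cd8b1 (17.4% against 71.4% in members) and Gzmb (84.8% against 23.8% in members).

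The members were not uniform. In the parous library, the 9 members with Ccr7 had Car2 in 8 cells and Cdh1 in 2, whereas the 55 without it had Car2 in 26 cells and Cdh1 in 38, at median depths of 6508 and 4628 UMIs. All 9 had Klf2 and 8 had Lef1, while 1 had Itga1 and 0 had Gzmb. Of the other 55, 26 had Itga1, 35 Cxcr6 and 27 Gzmb. The naive-type members were thus mostly Car2 cells, although Itgae was common to both, in 6 of 9 and 32 of 55. The 24 members with Car2 and no Cdh1 had Ccr7 in 7 cells, Cxcr6 in 10 and Itga1 in 8, and the 30 with Cdh1 and no Car2 had Ccr7 in 1, Cxcr6 in 21 and Itga1 in 13, at median depths of 4699.5 and 4680 UMIs. More markers went with Itga1: it was found in 21 of the 28 parous members with at least 3 markers and in 6 of the 36 with 2 markers, at median depths of 5234 and 4546 UMIs.

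Virgin members with and without Ccr7 also differed in Itga1, Cxcr6 and Lef1, but little in Car2. Car2 was found in 14 of the 21 with Ccr7 and 10 of the 16 without, and Cdh1 in 8 of 21 and 8 of 16. Of the 21 with Ccr7, 1 had Itga1, 4 had Cxcr6 and 19 had Lef1, and of the 16 without, 9 had Itga1, 13 had Cxcr6 and 3 had Lef1. Itgae was found in 15 of the 21 and 7 of the 16. Zfp683 was found in 6 of the 13 virgin members with Cdh1 and no Car2 and in 1 of the 21 with Car2 and no Cdh1. These subgroups rest on few cells and were formed from the same molecules that are compared.

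Between the libraries, parous members had more RNA of the tissue residency list than virgin members, and the list median was lower without Ccr7 cells. The tissue residency list had a median log2 ratio of 1.05 over 24 genes, with 17 at least 1.5-fold higher and 4 lower (Cd69, Zfp683, P2rx7 and Ctla4), where 18.4% of 6454 genes were higher and 21.4% lower and their median was 0.01. Without Ccr7 cells the list median was 0.40, with 10 higher and 4 lower. The recirculation list had a median of -0.64 with 12 of 21 lower and 0 higher, and -0.57 without Ccr7 cells. For circulating effector genes the median was 0.05 over 9 genes (4 higher, 1 lower), and -0.39 without Ccr7 cells, with 0 higher and 2 lower.

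Itga1 was at 180.7 CPM in parous and 49.4 CPM in virgin members, a log2 ratio of 1.84 (1.05 to 2.77) that was 0.72 (-0.09 to 1.68) without Ccr7 cells. Cxcr6 had 0.66 (0.09 to 1.26), and -0.24 (-0.85 to 0.40) without them. Both ratios were thus lower among members without a Ccr7 UMI, of which 16 were virgin. The intervals with and without Ccr7 cells overlapped, so neither change was separated from counting error. Finding a Ccr7 UMI depends on depth, and virgin members had a median of 8171 UMIs against 4830.5 in parous members. How far depth shaped these changes was not tested. Cd69 was lower in parous members either way, at 305.3 CPM against 626.6 CPM in virgin members, with log2 ratios of -1.03 (-1.40 to -0.68) and, without Ccr7 cells, -0.70 (-1.19 to -0.19). Klf2 was lower too, at 685.4 against 1867 CPM, with -1.44 (-1.68 to -1.22) and -1.31 without those cells. Zfp683 had -0.80 (-2.11 to 0.36), and -1.78 without them, from 10 parous and 18 virgin UMIs, 8 of the virgin ones in 1 cell. Cells outside the members also differed between the libraries in some of these genes. In the random part of the UMIs not read for the choice, the cells not chosen had Itga1 at 73.2 (parous) and 29.9 CPM (virgin). Cd69 was at 343.3 and 630.7 CPM in them, and Cxcr6 at 185.6 and 160.3 CPM. How much of the member differences is particular to members was not tested.

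The 10 largest differences included genes of the inhibitory receptor and cytotoxic granule lists and several of neither. The inhibitory receptor list had 4 higher and 2 lower of 11 genes (median 0.44), and the cytotoxic granule list 6 higher and 2 lower of 13 (median 0.56). Of all 6454 genes, 18.4% were higher and 21.4% lower by as much. Metrnl, a secreted factor gene, gave 34 UMIs in 20 parous members and 0 UMIs in virgin members, at least 11.4-fold higher. Pdcd1 gave 41 UMIs in 17 parous members against 2 UMIs in 1 virgin member, a log2 ratio of 4.07 (2.43 to 7.46), and Tigit, another inhibitory receptor gene, 29 UMIs in 23 cells against 1 UMI. Both were therefore spread over many parous members and found in a single virgin member each. Without the demand for 0 UMIs of Fcer1g, Tyrobp and Gzmk, the ratios were only 0.98 for Pdcd1 (0.43 to 1.61) and 1.49 for Tigit (1.02 to 2.04), and 2.57 (0.41 to 8.50) and 1.74 (-0.11 to 5.19) when members were chosen on a random part of the UMIs. Without Ccr7 cells, Pdcd1 had 37 UMIs in parous members against 0 in virgin members, and Tigit 25 against 0. Litaf, which encodes an endosomal protein induced by LPS, was at 289.8 against 24.7 CPM (3.47, 2.51 to 4.81), Slc16a10 at 134.0 against 9.26 CPM (3.65) and Cdkn1a, the p21 cell cycle inhibitor gene, at 93.5 against 6.17 CPM (3.62). Gzmb gave 133 UMIs in 27 parous members against 13 UMIs in 3 virgin members (3.32, 2.55 to 4.32). Without Ccr7 cells these ratios were 2.24 for Litaf, 2.44 for Slc16a10, 2.44 for Cdkn1a and 2.18 for Gzmb. Ttc39c had 3.42, 2.28 without those cells and 1.25 without the demand for 0 UMIs of the 3 genes. Gzma (4.16) and Klra7 (22 UMIs against 0, at least 7.40-fold higher) rested on few cells, with 17 of 26 and 11 of 22 UMIs in 1 cell.

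Of the cytokine and chemokine list, 3 genes were higher and 2 lower of 8 in parous members (median 0.34), and 2 higher and 2 lower, with Ccl3 among the lower, without Ccr7 cells (median -0.11). With all members, 18.4% of all genes were higher and 21.4% lower. Xcl1 was at 912.9 against 175.9 CPM (log2 ratio 2.37, 1.96 to 2.81, and 1.75 without Ccr7 cells), and Ccl5 had 1.07 (1.0 to 1.15) and Ccl4 1.71 (1.28 to 2.18), which without Ccr7 cells were 0.16 and 0.97. Pmepa1 had 2.05 (1.28 to 2.97) and 1.47 without those cells, and Ldlrad4 1.37 (0.75 to 2.06). In parous members the genes of the rule were higher too, as a description. Cdh1 was higher by 1.47 (0.71 to 2.33), Itgae by 0.87 (0.31 to 1.48) and Car2 by 0.72 (0.23 to 1.24). Without Ccr7 cells these ratios were 0.98, 0.78 and 0.18 (-0.43 to 0.86). The Car2 interval thus spanned 0 once those cells were set aside.

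The 10 smallest differences were led by Ccr9, the gut-homing chemokine receptor gene, at 0 UMIs in parous members against 20 UMIs in 11 virgin members, at least 6.60-fold lower. All of these virgin UMIs came from cells with Ccr7, and without those cells both libraries were at 0 UMIs. Arl5c (-4.33), Irgm1 (-3.83), Gart (-3.09), Naa20 (-2.61), Cmah (-2.56), Tmem108 (-2.54), Slamf6 (-2.48), Scfd1 (-2.43) and Rcsd1 (-2.39) each had at most 8 UMIs in parous members, and Tmem108 was at 0.46 without Ccr7 cells. Type I interferon genes were lower in parous members, with 8 of 15 at least 1.5-fold lower and 2 higher (median -0.75), and a median of -0.91 without Ccr7 cells. Of all genes, 21.4% were lower and 18.4% higher by that much in the members as a whole.

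**Figure D5:**
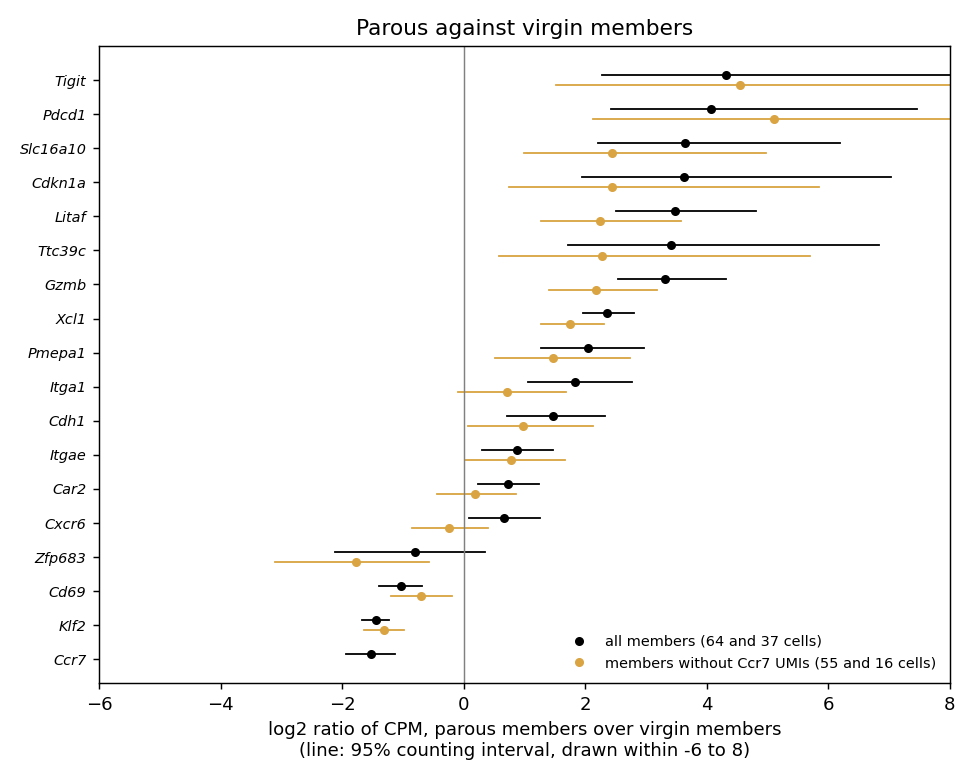
Points are log2 ratios of parous over virgin members with 95% counting intervals, for all members (black) and for members without a Ccr7 UMI (ochre; Ccr7 itself has no such value). Itga1 moves to 0.72 and Cxcr6 to -0.24 without those cells, while Cd69 and Klf2 stay below 0.

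The members used many T cell receptor segments. A Trbv gene was assigned in 54 of 64 parous members, which used 16 segments, and in 29 of 37 virgin members, which used 15. Trbv3 was the most used in parous members, in 8 of 54 (14.8%, 6.62 to 27.1%) against 12.4% of the other parous T cells, and in 0 of 29 virgin members (which allows up to 11.9%) against 8.53% of the other virgin T cells. Trbv19 was used by 4 of 29 virgin members (13.8%) against 6.46% of the other virgin T cells. Neither segment separated members from other T cells beyond counting error. Trbv1, used by 24 of 101 marker cells with Gzmk alone (23.8%), was used by 4 of 54 parous members (7.41%, 2.06 to 17.9%).

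Trav3-3, chosen for description after its values were seen, was assigned in 9 of the 33 parous members with an assigned Trav gene (27.3%, 13.3 to 45.5%), against 18.5% of the other parous T cells and 6.94% of parous naive-like cells. Parous marker cells with Gzmk alone had it in 20 of 55 (36.4%). In virgin members it was found in 0 of 17, which allows up to 19.5%, against 6.62% of the other virgin T cells. Among 28 parous members with both segments there were 21 pairs; 4 members used Trav3-3 with Trbv1, as did 14 of 42 marker cells with Gzmk alone, and 3 used Trav3-3 with Trbv16, a pair found in 1 of 797 other parous T cells. All 13 virgin members with both segments had different pairs. Segments come from gene expression counts without the junction sequence, and near-identical Trav copies can share reads, so a shared pair does not establish a shared clone.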

How the data were processed

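The authors deposited raw UMI counts per gene and barcode for 2 libraries of 1 group each, made with Cell Ranger 7.0.0 on mm10, per the submitters' processing notes. How barcodes were called as cells is not given in the sources used here. Of the 32285 genes listed, 32235 took a position from GENCODE M21 on GRCm38, the assembly that mm10 names.

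Cells were filtered and members chosen as stated in the results. No doublet caller was used; 4 parous and 2 virgin members had over 2 times their library's median UMIs. The filter left out 38.7% of parous barcodes. UMIs were summed per library and cell set, and ratios used genes with at least 10 UMIs over both sets. Naive-like cells had both Ccr7 and Lef1 and no UMI of Itga1, Cxcr6, Car2 or Cdh1. The members and all 30 gene lists were chosen with earlier results of these data known.

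Named genes were the 14 largest and smallest parous ratios (minimum 20 CPM and 30 UMIs in members or others), the 10 largest and smallest differences between parous and virgin members (at least 50 CPM and 20 UMIs), from each list up to 6 genes past 1.5-fold, and a constant set; receptor segments, ribosomal, mitochondrial and unnamed genes were left out. Some genes are not reported here, and the lists were used without them. A segment needed at least 2 UMIs and 2/3 of the cell's UMIs of its kind. Intervals were exact (conditional binomial, Clopper-Pearson) at 95%. The ratios were checked on simulated counts. Alternatives covered scaling, gene and cell filters, the rule, thinning and cells with high UMIs. Python 3.11.15, numpy 2.4.6, scipy 1.17.1, pandas 2.3.3 and matplotlib 3.10.9 were used.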

Additional observations from a re-analysis of the deposited data

Results flagged for a closer look

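Between the libraries, 8 named genes had opposite signs in members against other T cells, with each counting interval on its own side of 0. In parous and then virgin members the log2 ratios were -3.08 and 0.67 for Arl5c, -0.54 and 0.36 for Ccr7, -1.02 and 0.57 for Cmah, -1.66 and 0.97 for Gart, -0.26 and 0.13 for Klf2, -1.51 and 0.89 for Scfd1, -1.02 and 0.66 for Slamf6, and 1.18 and -1.85 for Ttc39c. With 1 library per group these differences were not tested. Arl5c, Gart and Scfd1 had 1, 2 and 4 UMIs in parous members, and Ttc39c had 2 UMIs in 1 virgin member. The virgin signs of Ccr7 and Klf2 were not stable. Over the alternative settings their virgin ratios ran from -0.29 to 0.36 and from -0.11 to 0.40.

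Car2 and Cdh1 also appeared in 1908 parous barcodes that failed the cell filter (median 600 UMIs): Car2 stood at 51.7 CPM (63 UMIs in 57 barcodes) and Cdh1 at 38.6 CPM (47 UMIs in 42 barcodes). The 15 virgin barcodes left out gave 0 UMIs of both. Whether those barcodes were cells or free RNA was not tested.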

How the results depend on the processing

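Of 120 recomputed summary values, 90 stayed within their limits and 30 moved. Genes at least 2-fold apart numbered 2226 for parous members, 3210 for virgin members and 1241 between them; with at least 1 UMI they were 7516, 8405 and 4470, with the CPM filter 270, 384 and 359, and between libraries 302 with at least 30 UMIs. With at least 3 of the 6 markers the shares were 0.936% and 0.280%, with 4098 genes and a recirculation median of -0.60 (parous). Without the demand for 0 UMIs of Fcer1g, Tyrobp and Gzmk, the shares were 12.5% and 2.32%, the residency median 0.86 (parous) and the recirculation medians -0.75 and -0.028. The parous cell cycle median was then 0.25, and ratios turned for Gzma (2.95), Gzmc (3.21), Klra1 (1.88), Klra6 (1.64), Trf (0.95), Birc5 (0.38), Top2a (0.33), Pclaf (0.27), Irgm1 (0.018) and St8sia1 (-0.55). With cells thinned before the rule, the shares were 1.29% and 0.0402%, with 3841 genes, medians of 0.93 (residency), -0.49 (recirculation) and 0.37 (cell cycle), and Irgm1 at 1.36, Hspb11 at 0.55 and Cmah at 0.13. Of the 37 parous cells chosen that way, 22 were members without thinning. Chosen on a random 1 of 2 equal parts of the UMIs, virgin members were 0.721% of T cells, medians were 0.70 (residency) and -0.079 (recirculation), 697 genes differed between libraries with a residency median of 0.52, and Gart (0.50), Irgm1 (0.063) and Scfd1 (virgin, -0.051) turned. Without Ccr7 cells, virgin members were 0.641% of T cells, the residency median between libraries was 0.40, and virgin ratios turned for Arl5c (-3.17), Slamf6 (-0.96) and Scfd1 (-0.57); between libraries Cxcr6 was -0.24, S1pr1 0.013 and Tmem108 0.46. The parous recirculation median was -0.26 from the cells' own CPM and -0.23 without cells over 2 times the median UMIs. The causes were not tested.

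The virgin and the between-library comparisons were not run with at least 3 markers or with thinning before the rule, which left 7 and 1 virgin members. No paired analysis was possible because each group is 1 library. The filter on genes that used CPM and the comparison without Ccr7 cells were chosen after seeing the data. Depth limits the result most for genes with few UMIs in the members, where 3 UMIs are 9.35 CPM in parous and 9.26 CPM in virgin members, and mice were pooled.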
